A study of Mus musculus with 17 samples.

Results

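The genes described here encode the nuclear subunits of the 5 complexes of oxidative phosphorylation, measured in mouse eosinophils. They were chosen by name: a probe set belonged if its only gene symbol in the platform annotation began with Ndufa, Ndufb, Ndufc, Ndufs or Ndufv and a digit, with Uqcr, Atp5 or Cox followed by a digit from 4 to 8, or was Sdha, Sdhb, Sdhc or Sdhd, and pseudogene symbols were left out. This gave 78 genes of the 22180 measured, with 31 in complex I, 4 in complex II, 7 in complex III, 19 in complex IV and 17 in complex V. Ndufa4, first assigned to complex I, and its paralog Ndufa4l2 were counted with complex IV. A further 8 symbols, Cox6c, Ndufb2, Ndufb4, Ndufb4b, Ndufb4c, Ndufs6, Ndufs6b and Uqcr10, occurred only in probe sets shared with other symbols and were not counted.

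Oxidative phosphorylation makes most of the ATP of a resting cell. Complex I oxidizes NADH and complex II oxidizes succinate, complex III passes the electrons on to cytochrome c, complex IV hands them to oxygen, and complex V uses the proton gradient so formed to make ATP. Most subunits are encoded in the nucleus and a few in the mitochondrial genome. Among granulocytes, neutrophils are known for relying heavily on glycolysis.

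All mice carried the CC10-IL13 transgene, in which a promoter of airway club cells directs interleukin-13 and doxycycline food (Dox) switches it on. Pirb, the gene of an inhibitory receptor of myeloid cells, was intact (Pirb+/+, wildtype) or deleted (Pirb-/-, knockout) in littermates, and males and females aged 6 to 8 weeks were used. Eosinophils, sorted as CD45+ Siglec-F+ CCR3+ cells, came from bone marrow without Dox (2 wildtype and 3 knockout arrays), from bone marrow after 2 weeks of Dox (3 and 3) and from the esophagus after 2 weeks of Dox (3 and 3). Esophageal tissue was digested with collagenase and marrow was not, so tissue and preparation cannot be told apart, and no label says whether an array holds 1 mouse or a pool. The value used throughout is how far, in log2 units, an array lay above or below a centre set for each probe set. That centre need not be the middle of the 17 arrays. The value carries no brightness, and levels of different genes cannot be compared.

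The arrays differed in spread. Over all genes the SD was 0.231 to 0.284 in 10 of the 11 arrays of marrow and from 0.511 to 0.611 in those of the esophagus. Replicate 3 of the knockout marrow group without Dox had an SD of 0.802 and a mean correlation of -0.027 across genes with the other arrays of its group, against 0.380 with the wildtype esophageal arrays. It is called the outlying array here, and counts and calls that move with it are given with and without it. It lies in no arm of the esophagus to marrow comparisons, where it entered only the estimate of the spread. Pirb itself ranged from 0.75 to 2.17 in wildtype and from 0.77 to 1.20 in knockout esophageal arrays. Whether its probes lie in the deleted part is not known, so these values check nothing about the genotype labels.

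With Dox, subunit genes were lower in esophageal than in marrow eosinophils in both genotypes, with the lowest medians in complexes I and III. The mean over all 78 genes was 0.20, 0.07 and 0.17 in the 3 wildtype marrow arrays and 0.22, 0.23 and 0.23 in the 3 knockout marrow arrays. In the esophagus it was -0.59, -0.22 and -0.57 in wildtype and -0.34, -0.24 and -0.32 in knockout. By this mean every esophageal array lay below every marrow array with Dox. The median member was at -0.004 in wildtype esophageal replicate 2, with 40 of 78 below 0, and from -0.506 to -0.169 in the other esophageal arrays. The means of complex II overlapped in knockout, at 0.119 in esophageal replicate 2 and 0.019 in marrow replicate 1. In a bulk sample fewer cells of a type and less RNA per cell cannot be told apart.

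**Figure D1:**
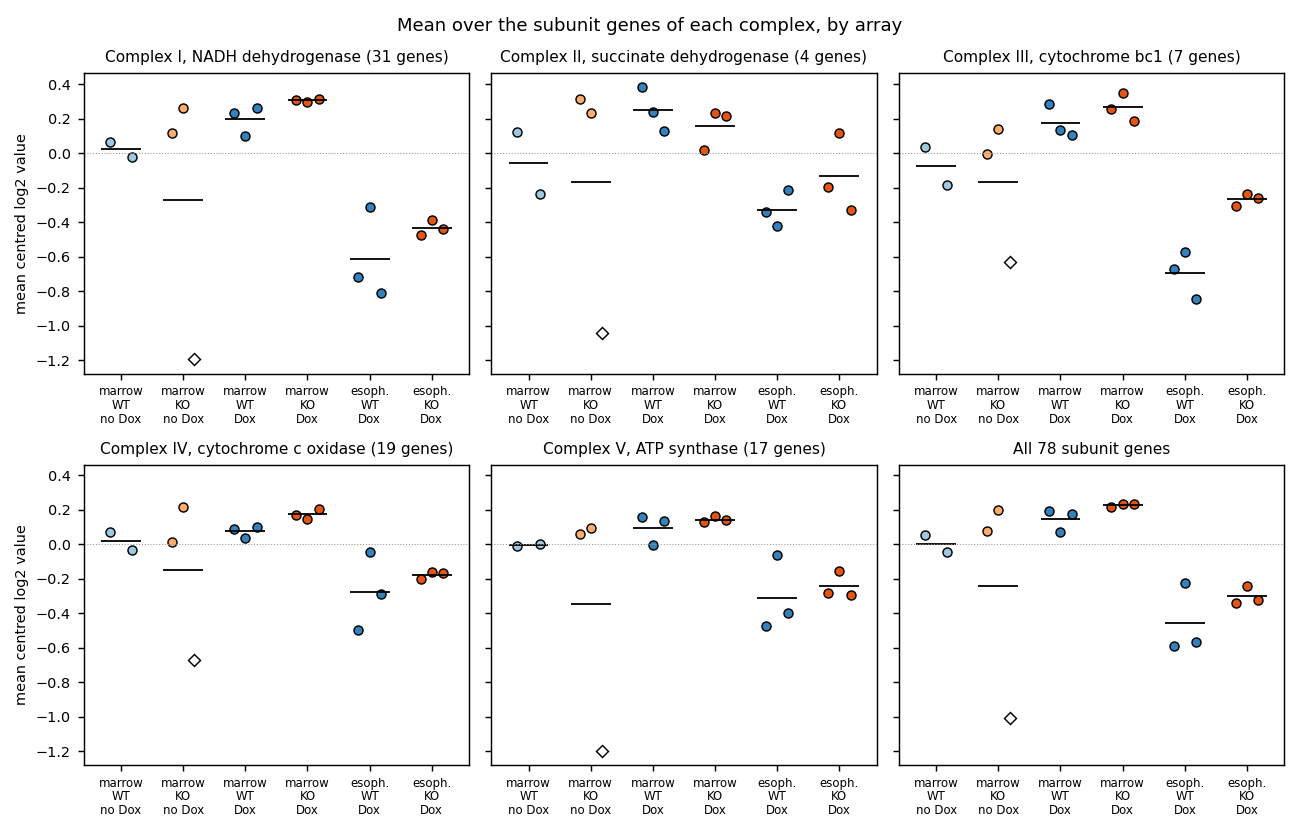
Mean centred log2 value over the subunit genes of each complex (vertical axis) in each array, by group; points are arrays, bars are group means, and the open diamond is the outlying array. Over all 78 genes the Dox marrow arrays lie between 0.07 and 0.23 and the esophageal arrays between -0.59 and -0.22, and the outlying array is at -1.01.

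The test across all genes used limma, with p-values adjusted over 22180 genes and a threshold of 0.05. In wildtype, 12 of the 78 members fell and 1 rose from marrow to esophagus, against 7.06% of all genes lower and 8.11% higher. In knockout, 9 fell and 1 rose, against 6.04% and 4.5% of all genes. In either direction 15.2% and 10.5% of all genes passed. The median difference of the members was -0.58 in wildtype, where that of all genes was 0.14, and -0.47 in knockout, where it was 0.06. The difference was below 0 for 66 members in wildtype and 63 in knockout, and 63 were below 0 in both. Without the outlying array 40 members fell and 6 rose in wildtype (11.4% and 25.1% of all genes, 36.5% in either direction), and 25 fell and 1 rose in knockout (9.07% and 9.75%, together 18.8%). The wildtype count also moved with single marrow arrays, from 13 to 4 without wildtype Dox replicate 1, to 7 without replicate 2 and to 5 without replicate 3. The knockout count went from 10 to 5 without knockout Dox marrow replicate 2. For these fits without a single marrow array the shares of all genes are not given here.

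Counting arrays instead of tests, 33 members had all 3 wildtype esophageal arrays below all 3 marrow arrays, where 13.1% of all genes did, and 8 had them above, where 33.0% did. In knockout these counts were 50 below and 4 above, against 16.0% and 28.0% of all genes. In both genotypes 30 of the 78 members lay wholly below, against 9.504% of all genes. Among all genes the esophageal arrays lay above more often than below.

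Of the called members 7 passed in both genotypes, all lower in the esophagus: Atp5a1, Atp5b, Cox6b2, Ndufa10, Ndufb3, Ndufb6 and Ndufs8. They were 53.8% of the wildtype and 70.0% of the knockout calls. Of all genes, 6.59% passed in both genotypes, which was 43.4% of the wildtype and 62.5% of the knockout calls, and 4.17% were lower in both. Without the outlying array 22 members were shared, of 46 wildtype and 26 knockout calls, again all lower, and 6.97% of all genes were lower in both.

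**Figure D2:**
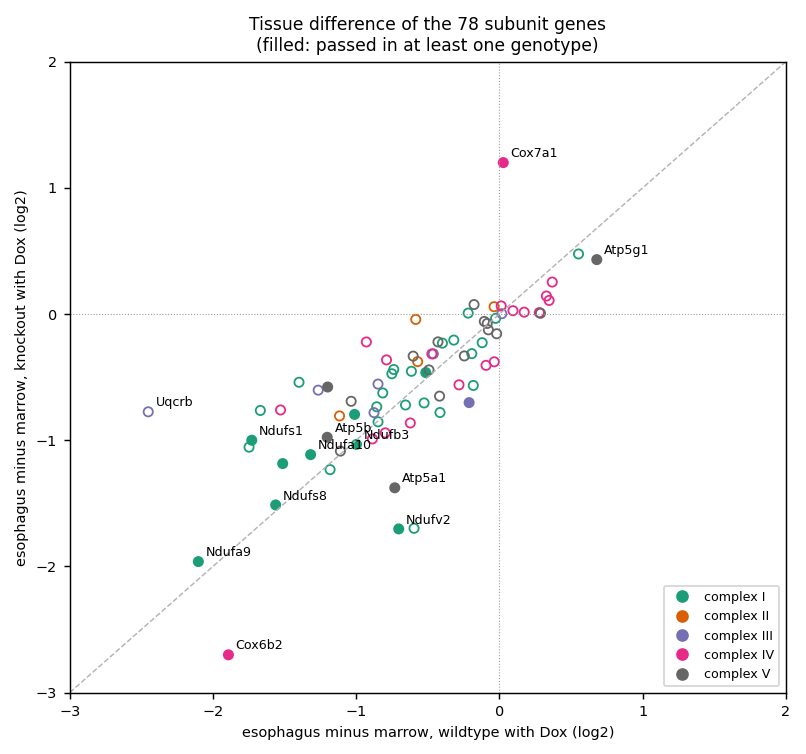
Esophagus minus marrow difference with Dox on the log2 scale for the 78 subunit genes, wildtype on the horizontal and knockout on the vertical axis; colour gives the complex, filled points passed the test in at least 1 genotype, and the dashed line marks equal differences. Most points lie at the lower left, Cox6b2 is lowest in knockout (-2.70), and Cox7a1 stands alone at the top (1.20).

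The 5′ flanks of nuclear subunit genes are known for sites of NRF-1, of ETS factors such as GABP, and of YY1. These motifs were searched in RefSeq promoter windows (GRCm38.p6), for the 64 of 78 members in that table. The windows ran from 250 bases before to 50 after the start, and both strands were searched. The counts over the 64 members do not depend on the array values, and a part of these motifs in the tissue difference was not tested. The NRF-1 motif, GCGCA and GCGC with any base between them, was in 14 members (21.9%), against 4.784% of all 27025 genes and 6.598% of the 17491 protein-coding genes. The ETS motif CCGGAAG was in 16 members (25%, against 9.121% and 11.892%) and the YY1 motif AAGATGGC in 8 (12.5%, against 2.879% and 3.225%). At least 1 of these was in 34 members (53.1%), against 15.197% of all and 19.541% of coding genes. The GC box GGGCGG was in 27 (42.2%, against 35.907% and 46.315%) and TATAAA in 8 (12.5%, against 14.161% and 13.344%). In 7 of the 8 members with the YY1 motif it lay on the gene's own strand, its first base 23 to 39 bases after the start.

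The next sequences are the 110 bases before the start of 5 members, 5′ to 3′ on the strand of the gene, with NRF-1 or ETS matches in capitals. They were picked by hand after the matches and the values were seen, to show a single NRF-1 match (Atp5g2), 3 of them (Sdha), an ETS match (Ndufs3 and Uqcr11) and no match (Atp5b). Sdha encodes the flavoprotein of complex II, Ndufs3 a core subunit of complex I, Uqcr11 a small subunit of complex III, and Atp5g2 and Atp5b the c ring and the catalytic beta subunit of complex V.
Atp5g2, chr15:102671048-102671157, minus strand: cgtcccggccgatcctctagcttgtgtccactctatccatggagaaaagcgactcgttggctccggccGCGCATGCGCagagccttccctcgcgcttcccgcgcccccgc
Sdha, chr13:74350241-74350350, minus strand: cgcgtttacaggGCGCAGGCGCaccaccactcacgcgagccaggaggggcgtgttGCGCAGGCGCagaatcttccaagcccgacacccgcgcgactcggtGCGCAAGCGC
Ndufs3, chr2:90904722-90904831, minus strand: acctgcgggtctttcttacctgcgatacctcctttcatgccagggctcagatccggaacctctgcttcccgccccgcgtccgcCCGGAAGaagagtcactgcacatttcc
Uqcr11, chr10:80406822-80406931, minus strand: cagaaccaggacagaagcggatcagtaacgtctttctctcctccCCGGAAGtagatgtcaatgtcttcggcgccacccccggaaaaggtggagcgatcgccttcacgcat
Atp5b, chr10:128083197-128083306, plus strand: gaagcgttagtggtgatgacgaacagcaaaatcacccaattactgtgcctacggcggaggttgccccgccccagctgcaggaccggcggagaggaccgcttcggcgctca
Of the 7 members called in both genotypes 6 were in the table. None of these 6 had an NRF-1, ETS or YY1 match in the 110 bases, and 2 of them, Ndufb6 and Ndufs8, had an ETS match elsewhere in the window. These 6 were picked by their array values. The share of the 64 members with a match in the 110 bases is not given here, so the count in that stretch has no background value.

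Complex I, the largest of the complexes, held 8 of the 13 wildtype and 5 of the 10 knockout calls. Its members had a median difference of -0.74 in wildtype and -0.72 in knockout, 30 and 29 of 31 were below 0, and these calls were all lower. Without the outlying array 18 were lower and 1, Ndufs5, higher in wildtype, and 15 lower in knockout. Its differences ranged from -2.10 to 0.55 in wildtype and from -1.96 to 0.48 in knockout. Among the 6 core subunits, which belong to the conserved part of the enzyme that carries electrons, 3 fell in wildtype (Ndufs1, Ndufs3 and Ndufs8) and 2 in knockout (Ndufs8 and Ndufv2). Among the 25 accessory subunits the counts were 5 and 3. In the fit without the outlying array 5 core subunits fell in each genotype, and 13 and 10 accessory ones.

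Ndufs8, a core subunit with 2 iron-sulfur clusters, was 0.94, 0.92 and 0.88 in wildtype and 0.82, 0.92 and 0.77 in knockout marrow with Dox. In the esophagus it was -0.58, -1.05 and -0.31 in wildtype and -0.51, -0.38 and -1.13 in knockout. The groups did not overlap in either genotype. The wildtype difference was -1.56 ± 0.37 (SE; adjusted p = 0.0153), and the knockout difference was -1.51 ± 0.37 (adjusted p = 0.0176). The wildtype call was lost without marrow replicate 1 or esophageal replicate 2 (0.0536 and 0.0605), and the knockout call without marrow replicate 1 or 2 or esophageal replicate 3 (0.0540, 0.0596 and 0.0791).

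Ndufs1, the largest subunit of the electron input module, was 0.72, 0.42 and 0.26 in wildtype marrow and -0.40, -1.76 and -1.63 in the wildtype esophagus. In knockout it was 0.89, 0.34 and 0.57 in marrow and -0.23, -0.38 and -0.59 in the esophagus. The arrays of the tissues were apart in both genotypes. With all arrays only the wildtype difference of -1.73 ± 0.53 passed (adjusted p = 0.0440), while that in knockout was -1.0 (adjusted p = 0.286). The outlying array was at -2.07 for this gene, and without it the knockout difference passed as well. The wildtype call passed in 11 of 25 alternative settings, and the genotypes were not shown to differ.

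Ndufv2, a core subunit of the same input module, was 0.14, 0.42 and 0.09 in knockout marrow and -1.74, -1.40 and -1.33 in the knockout esophagus, a difference of -1.70 ± 0.45 (adjusted p = 0.0275). The call was lost when any of these 6 arrays was left out, with an adjusted p from 0.0601 to 0.0967. In wildtype the esophageal arrays were uneven, at -0.82, -0.03 and -1.17, against 0.04, -0.02 and 0.07 in marrow. Ndufv1, which binds NADH and the flavin, had differences of -0.85 in both genotypes (adjusted p = 0.0618 and 0.0813), with its arrays apart. Neither difference passed with all arrays, and both passed without the outlying array. Ndufs7, the core subunit next to the quinone site, differed by -0.12 in wildtype and -0.23 in knockout (adjusted p = 0.596 and 0.465).

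Ndufa9, an accessory subunit at the junction of the arms of the complex, was 0.23, 0.07 and 0.37 in wildtype marrow and -1.32, -2.07 and -2.24 in the wildtype esophagus. The knockout values were 0.43, 0.27 and 0.26 against -1.95, -1.23 and -1.76. Both differences were the largest in complex I: -2.10 ± 0.60 in wildtype (adjusted p = 0.0338), and -1.96 ± 0.60 in knockout, which missed the threshold (adjusted p = 0.0539). The wildtype call was lost without any of the 3 marrow arrays or without esophageal replicate 2 or 3, with an adjusted p from 0.0752 to 0.0955. The outlying array, at -2.91, was the lowest of all for this gene. Without it both passed, at adjusted p = 5.8e-05 and 8.7e-05 (limma).

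Ndufa10 and Ndufb3 are accessory subunits, and Ndufa10 is described because it and Atp5b passed in all 25 alternatives in both genotypes, a choice made after its values were seen. Ndufa10 was 0.03, 0.28 and 0.29 in wildtype marrow and -0.46, -1.61 and -1.29 in the esophagus, and 0.33, 0.37 and 0.12 against -0.77, -1.05 and -0.71 in knockout. The outlying array was near the middle for this gene, at -0.02. Its differences were -1.32 ± 0.22 (adjusted p = 0.00235) and -1.11 ± 0.22 (adjusted p = 0.00522). Ndufb3 was 0.54, -0.04 and -0.04 in wildtype marrow and -1.07, -0.51 and -0.95 in the esophagus, and fell by 1.00 ± 0.19 on the log2 scale (adjusted p = 0.00554). In knockout it was 0.56, 0.64 and 0.89 against -0.33, -0.20 and -0.48, a difference of -1.03 ± 0.19 (adjusted p = 0.00356).

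The remaining calls in complex I were of accessory subunits of the membrane arm and of 1 core subunit. Ndufb6 differed by -1.51 ± 0.34 in wildtype (adjusted p = 0.0117) and by -1.19 ± 0.34 in knockout (adjusted p = 0.0394), and passed in 24 and 16 of 25 alternatives. With all arrays, Ndufb8 passed in wildtype alone at -1.01 (adjusted p = 0.0255) and the core subunit Ndufs3 at -0.51 (adjusted p = 0.0475), in 20 and 9 of 25 alternatives. Without the outlying array Ndufs3 fell in knockout too. Ndufs5 ran the other way in both genotypes, with differences of 0.55 and 0.48, neither past the threshold (adjusted p = 0.0997 and 0.223) and both with the esophageal arrays wholly above. The first of these passed without the outlying array (adjusted p = 0.0336). Ndufa13 was at 0.01 in knockout (adjusted p = 0.993).

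**Figure D3:**
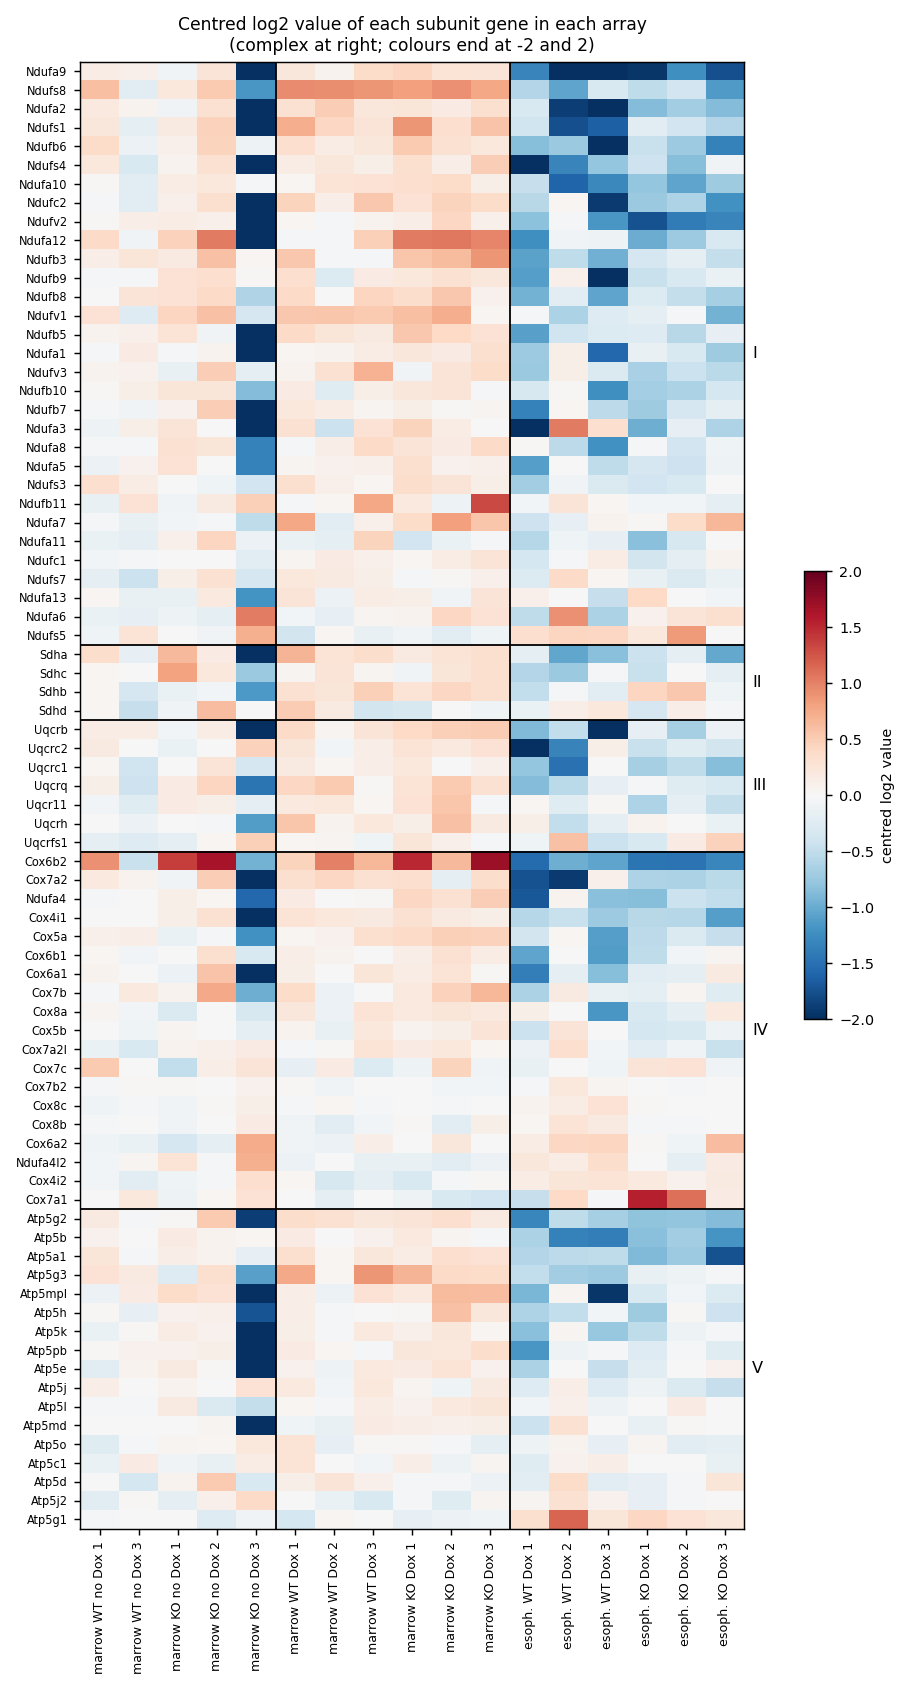
Centred log2 value of each of the 78 subunit genes (rows, by complex and by mean tissue difference) in each of the 17 arrays (columns). Red is above and blue below the centre, with colours ending at -2 and 2. Most rows of complexes I to III turn blue in the 6 esophageal columns, and many turn dark blue in the outlying array, marrow KO no Dox 3.

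Complex II has 4 subunits, all encoded in the nucleus, and none passed in either genotype. When the outlying array was left out, 3 fell in wildtype, Sdha, Sdhb and Sdhc, and 1 in knockout, Sdha. The medians were -0.58 in wildtype and -0.21 in knockout. Sdha, which binds the flavin, was 0.68, 0.28 and 0.35 in wildtype marrow and -0.17, -1.04 and -0.83 in the esophagus, a difference of -1.12 (adjusted p = 0.160). In knockout it differed by -0.81 (adjusted p = 0.430), again without overlap of the arrays. The outlying array was at -2.27 for Sdha, and without it both differences passed, at adjusted p = 0.00669 and 0.0447.

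Sdhb, the iron-sulfur subunit, differed by -0.58 in wildtype (adjusted p = 0.113, and 0.0156 without the outlying array). In knockout the difference was -0.04, with esophageal values of 0.43, 0.53 and -0.08 on either side of marrow values of 0.28, 0.41 and 0.32. The membrane anchors Sdhc and Sdhd differed by -0.57 and -0.04 in wildtype and by -0.38 and 0.06 in knockout. Neither passed with all arrays, and Sdhc passed in wildtype without the outlying array (adjusted p = 0.0390).

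In complex III the median difference was -0.85 in wildtype and -0.60 in knockout, and 6 of 7 members were below 0 in each. No member passed in wildtype, and in knockout the call was Uqcr11, a small accessory subunit. With the outlying array left out, 5 of 7 fell in wildtype, Uqcrb, Uqcrc1, Uqcrc2, Uqcrh and Uqcrq, and Uqcr11 remained the call in knockout. It was 0.29, 0.56 and -0.02 in marrow and -0.62, -0.18 and -0.48 in the esophagus, a difference of -0.70 ± 0.16 (adjusted p = 0.0108), which did not pass without marrow replicate 2 (0.0540) or esophageal replicate 1 (0.0552). In wildtype its arrays overlapped, with -0.21 between the means.

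The core subunits Uqcrc1 and Uqcrc2, which face the matrix, came close in wildtype, at -0.88 (adjusted p = 0.0516) and -1.27 (adjusted p = 0.0512), and passed there without the outlying array (0.0280 and 0.0308). In knockout they differed by -0.78 and -0.60 (adjusted p = 0.102 and 0.419). Uqcrfs1, the Rieske iron-sulfur protein, differed by 0.02 and 0.00, where the sign turned with the scaling. Uqcrb, an accessory subunit chosen here after its values were seen, was -0.88, -0.49 and -5.29 in the wildtype esophagus against 0.38, 0.06 and 0.26 in marrow. The value of -5.29 was the lowest of any member in an esophageal array, and the difference of -2.45 did not pass (adjusted p = 0.0919).

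Complex IV was the most mixed, with medians of -0.09 in wildtype and -0.32 in knockout and 11 of 19 members below 0 in each. In wildtype 1 member fell, and in knockout 1 fell and 1 rose. The counts without the outlying array were 7 lower and 4 higher in wildtype, and 4 lower and 1 higher in knockout. Its 9 common isoforms had medians of -0.62 and -0.41, 8 of the 9 below 0 in each genotype and none called with all arrays. Its 7 tissue-specific isoforms had medians of 0.17 and 0.03, with 1 of the 7, Cox6b2, below 0 in each.

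Cox6b2, the isoform of Cox6b known from testis, showed the largest drop of any member in knockout. It was 1.50, 0.65 and 1.71 in knockout marrow and -1.46, -1.48 and -1.30 in the esophagus, a difference of -2.70 ± 0.56 (adjusted p = 0.00664) that passed in all 25 alternatives. In wildtype it was 0.44, 1.00 and 0.66 against -1.53, -0.98 and -1.06, a difference of -1.89 ± 0.56 (adjusted p = 0.0382) that passed in 15 of 25 and was lost with quantile normalization (adjusted p = 0.170). Its 3 knockout marrow arrays without Dox spread widely, at 1.38, 1.65 and -0.95.

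Cox7a1, the heart and skeletal muscle isoform of Cox7a, rose in knockout. Its values were -0.10, -0.30 and -0.38 in marrow and 1.56, 1.10 and 0.16 in the esophagus, so 2 of the 3 esophageal arrays were high and the third lay close to marrow. The difference was 1.20 ± 0.29 (adjusted p = 0.0158), and it passed in 20 of 25 alternatives. It was lost with only the groups compared (0.0601) and without marrow replicate 2 or 3 or esophageal replicate 1 or 2 (0.0539 to 0.0695). In wildtype the difference was 0.03 (adjusted p = 0.949), with esophageal values of -0.46, 0.40 and -0.05. Among muscle genes, the skeletal actin Acta1 rose by 1.46 and the fast troponin Tnnt3 by 0.88 in the same knockout comparison (adjusted p = 0.00619 and 0.0226), while Ckm, muscle creatine kinase, and Myl1, a myosin light chain, differed by 0.23 and 0.12 and did not pass. Their part in the Cox7a1 result was not tested.

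The common isoforms did not pass with the outlying array in the fit. Cox4i1, the common form of subunit 4, was 0.27, 0.20 and 0.17 in wildtype marrow and -0.58, -0.45 and -0.72 in the esophagus. Knockout marrow held 0.30, 0.18 and 0.12, against -0.56, -0.57 and -1.10. Both sets were narrow and apart, with differences of -0.80 and -0.94, yet the adjusted p was 0.503 and 0.583, and the outlying array stood at -4.50. Without that array Cox4i1 fell in both genotypes, at adjusted p = 0.00106 and 0.000343.

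Cox5a, Cox6a1, Cox7a2 and Cox8a, other common forms, differed by -0.62, -0.93, -1.53 and -0.47 in wildtype and by -0.86, -0.22, -0.76 and -0.32 in knockout. None passed with all arrays. In at least 1 fit with a single array left out, Cox5a passed in both genotypes and Cox6a1 and Cox7a2 in wildtype. Cox5b differed by -0.09 and -0.41, and its 2 probe sets did not correlate (r = 0.00). Ndufa4 differed by -0.89 and -0.99 (adjusted p = 0.151 and 0.181), and passed in each genotype in at least 1 fit with a single array left out. The tissue-specific forms Cox4i2, Cox6a2 and Cox8b had differences of 0.37, 0.35 and 0.28 in wildtype and 0.25, 0.11 and 0.01 in knockout, and Ndufa4l2, a paralog known for its response to low oxygen, had 0.33 and 0.14. None of these 4 passed with all arrays. Cox4i2, Cox8b and Ndufa4l2 passed in wildtype in at least 1 fit with a single array left out. Cox7a2l, which joins complexes III and IV, differed by -0.04 in wildtype and -0.38 in knockout (adjusted p = 0.844 and 0.0834). The knockout difference passed in at least 1 fit with a single array left out.

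Complex V had medians of -0.42 and -0.33, with 15 and 14 of 17 members below 0. In wildtype 3 fell and 1 rose and in knockout 2 fell, against 7 and 1 and against 4 without the outlying array. The clearest results were in the catalytic F1 head, whose alpha and beta subunits form the ring that makes ATP. Atp5b, the beta subunit, was 0.17, -0.01 and 0.09 in wildtype marrow and -0.63, -1.35 and -1.38 in the esophagus. In knockout it was 0.19, 0.05 and -0.03 against -0.84, -0.70 and -1.17. Its marrow values without Dox ranged from 0.01 to 0.16 with the outlying array at 0.05, so all 11 marrow arrays lay between -0.03 and 0.19 and above all 6 esophageal arrays. In wildtype the difference was -1.20 ± 0.17 (adjusted p = 0.000822). In knockout it was -0.98 ± 0.17 (adjusted p = 0.00242).

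Atp5a1, the alpha subunit, was 0.32, 0.04 and 0.22 in wildtype marrow and -0.58, -0.53 and -0.51 in the esophagus. The knockout values were 0.15, 0.34 and 0.29 against -0.89, -0.72 and -1.75. The knockout esophageal arrays all lay below the wildtype ones. The tissue difference was -0.73 ± 0.20 in wildtype (adjusted p = 0.0312), a call lost when any of these 6 wildtype arrays was left out (adjusted p from 0.0529 to 0.109). That in knockout was -1.38 ± 0.20 (adjusted p = 0.000732). The genotypes were not shown to differ (tissue by genotype adjusted p = 0.962). Atp5c1, the central shaft of F1, differed by -0.08 and -0.07 (adjusted p = 0.630 and 0.791).

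The c ring is built from 1 protein encoded by 3 genes, and these did not move alike. Atp5g3 was 0.75, 0.04 and 0.88 in wildtype marrow and -0.50, -0.69 and -0.73 in the esophagus, and fell by 1.20 ± 0.28 on the log2 scale (adjusted p = 0.0156, lost without marrow replicate 1 at 0.0665 or 3 at 0.0588). In knockout its difference was -0.58 (adjusted p = 0.246). Atp5g2 differed by -1.11 and -1.09 (adjusted p = 0.0919 and 0.147) and passed in both genotypes without the outlying array (adjusted p = 0.000894 and 0.00105). Atp5g1 went the other way, with -0.35, 0.04 and -0.01 in wildtype marrow and 0.32, 1.16 and 0.25 in the esophagus.

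That rise of Atp5g1 was 0.68 ± 0.19 (adjusted p = 0.0321), but it was lost with quantile normalization (adjusted p = 0.0972), with median centring (0.0545) and with only the groups compared (0.128). It was also lost without wildtype marrow replicate 1 (0.127), 2 (0.0540) or 3 (0.0586), and without wildtype esophageal replicate 2 (0.0621), the array at 1.16. In knockout the difference was 0.43 (adjusted p = 0.193), again with the arrays apart.

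**Figure D4:**
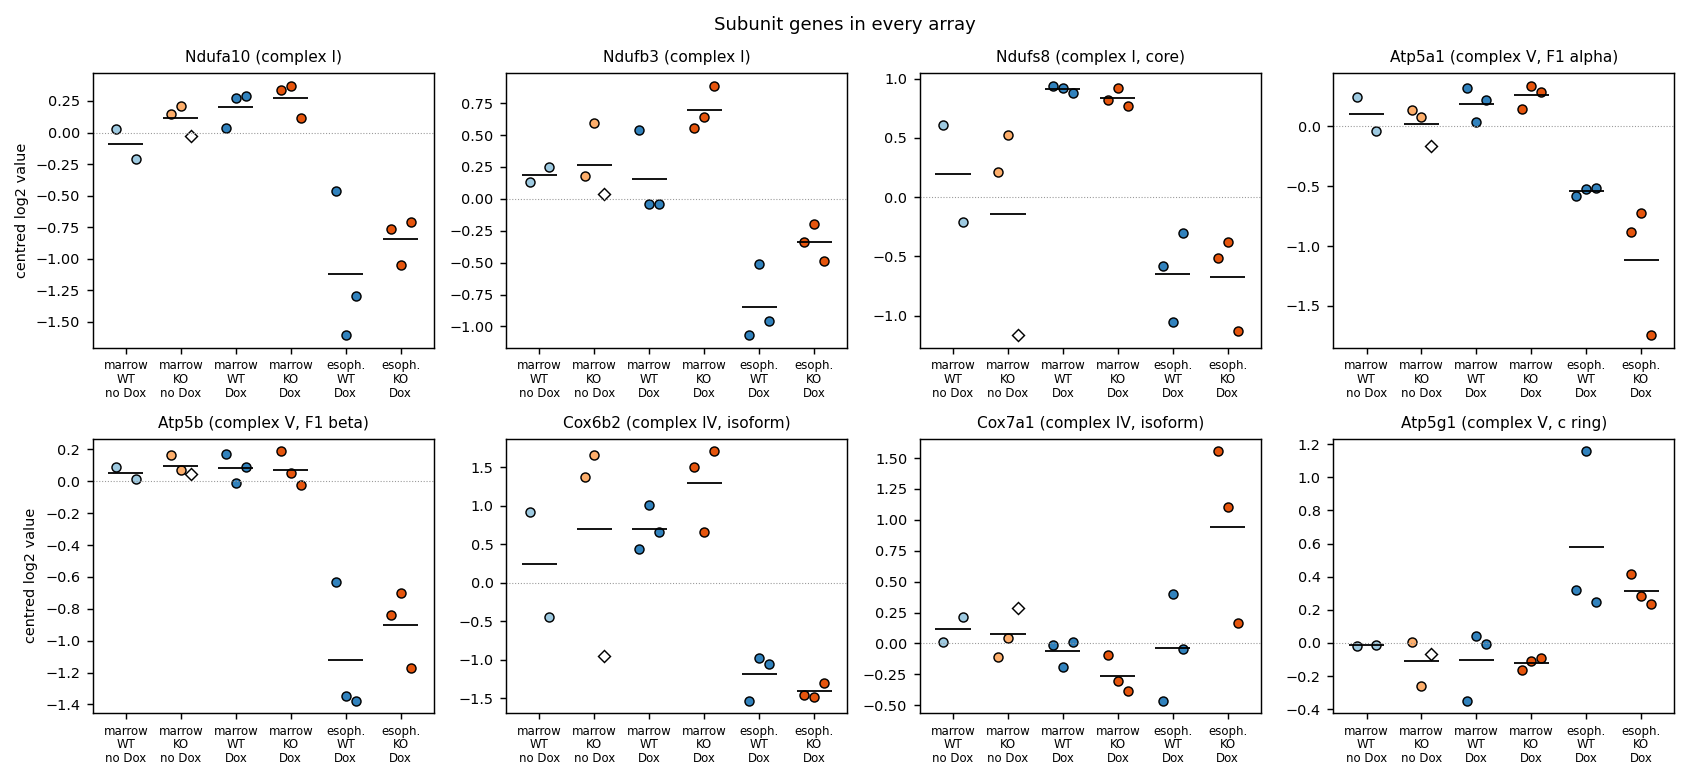
Centred log2 value (vertical axis, own scale for each gene) of 8 subunit genes in every array, by group; points are arrays, bars are group means, and the open diamond is the outlying array. The esophageal arrays lie below the Dox marrow arrays of their genotype for Ndufa10, Ndufb3, Ndufs8, Atp5a1, Atp5b and Cox6b2, and above them for Atp5g1 in both genotypes and for Cox7a1 in knockout.

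The members varied together over the arrays. The correlation of a member with the mean of the other 77 had a median of 0.68 over all 17 arrays and of 0.71 without the outlying array, and 51 of 78 were above 0.5 in the latter. These arrays fall into tissue groups, so the value describes that split as well. Atp5g2 and Ndufb8 followed the others most closely (0.94 each), and Ndufs5 (-0.72), Cox4i2 (-0.70), Ndufa4l2 (-0.68) and Atp5g1 (-0.66) ran most against them.

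Dox in marrow, and the genotype in any setting, moved no member past the threshold. Over all genes 0.0225% were called for Dox in each genotype, 0.347% for genotype in the esophagus, and 0 for genotype in marrow with or without Dox. Without the outlying array no member passed either, and the shares of all genes were 0.149% and 0.00451% for Dox in wildtype and knockout, 3.44% for genotype in the esophagus, and 0 and 0.00451% for genotype in marrow with and without Dox. With array weights, 8 members passed for Dox in knockout and 1 for genotype in the esophagus. The share of all genes called with array weights is not given here, so these counts cannot be set against the shares above. At an unadjusted p under 0.05 there were 1 member for Dox in wildtype, 11 for Dox in knockout, 9 for genotype in the esophagus, 1 for genotype in marrow with Dox and 2 for genotype in marrow without Dox. The shares of all genes at that cut were 4.315%, 27.290%, 14.660%, 1.835% and 8.156% in the same order.

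For Dox in wildtype marrow the members' median difference was 0.10, against -0.01 for all genes, and 23 members had all Dox arrays above both arrays without Dox, where 12.5% of all genes did, and 1 had them below (12.9%). The smallest p-values belonged to Ndufs7 (0.48), Cox7a2l (0.30) and Ndufs8 (0.72), each at adjusted p = 1.00. For Dox in knockout marrow the median was 0.38, against -0.13 for all genes, and without the outlying array it was 0.07. The arrays were apart with Dox higher for 17 members and lower for 3, against 8.34% and 28.1% of all genes. Ndufa7, an accessory subunit, differed by 0.77, Sdhb by 0.78 and Ndufa4l2 by -0.47, all at adjusted p = 0.146, and without that array by 0.62, 0.44 and -0.28 (adjusted p = 0.465, 0.463 and 0.463).

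In the esophagus, knockout minus wildtype had a median of 0.08 over the members and of -0.10 over all genes. The knockout arrays lay wholly above for 2 members and below for 5, against 5.67% and 17.6% of all genes. Cox7a1 differed by 0.98 ± 0.29 (adjusted p = 0.186), and the groups overlapped; without knockout replicate 3, the array at 0.16, the adjusted p was 0.0243, and over all alternatives it ran from 0.0243 to 0.790. Atp5a1 was lower in knockout by -0.58 (adjusted p = 0.251) and Ndufb3 higher by 0.50 (adjusted p = 0.277), with the arrays apart for both. In marrow with Dox, Ndufb3 differed by 0.54, Ndufa7 by 0.36 and Ndufa12, an accessory subunit, by 0.89, each at adjusted p = 1.00. There the knockout arrays lay wholly above for 9 members and below for 2, against 4.11% and 7.62% of all genes. Complex by complex, the knockout minus wildtype medians in the esophagus were 0.23 (I), 0.19 (II), 0.17 (III), -0.07 (IV) and 0.02 (V). With quantile normalization they were 0.03, 0.04, 0.12, 0.00 and 0.03.

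In marrow without Dox the genotype median over the members was -0.12 with the outlying array and 0.11 without it, so that its sign rested on that array. The knockout arrays lay wholly above for 4 members and below for 3, against 17.6% and 5.72% of all genes. Cox7a2l (0.33), Ndufs3 (-0.40) and Ndufa4l2 (0.32) had the smallest p-values, all at adjusted p = 0.546. Neither interaction called a member. For genotype by tissue, Cox7a1 (1.17, adjusted p = 0.860), Atp5a1 (-0.65) and Uqcr11 (-0.49, both 0.962) came nearest, against 0.00451% of all genes called, or 0.0541% without the outlying array. For genotype by Dox, Cox5a (0.87), Ndufs3 (0.48) and Atp5o (-0.35), the stalk subunit OSCP, had an adjusted p of 0.663 each, against 0 genes called.

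The outlying array itself was low for these genes. Their mean was -1.01 there, against 0.08 and 0.20 in the other 2 knockout marrow arrays without Dox, and it was the lowest of the 17 arrays for 34 of 78 members, against 9.748% of all genes. Complexes I and V were lowest in it, at -1.19 and -1.20, and complex III was at -0.63. The lowest single values were those of Atp5k, a small membrane subunit of complex V (-5.39), Cox4i1 (-4.50) and the accessory subunit Ndufa2 (-4.48), named after their values were seen. Eosinophil and neutrophil markers were low in it too, with list means of -1.01 and -1.04. The loss was not shared by all members: Atp5b was at 0.05, Ndufa10 at -0.02 and Ndufb3 at 0.04.

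Genes that support the complexes were described from lists, whose counts in this tissue comparison stand against 7.06% of all genes lower and 8.11% higher in wildtype and 6.04% and 4.5% in knockout. Of 44 assembly factors, 9 fell and 1 rose in wildtype and 5 fell in knockout. Without the outlying array 14 fell and 3 rose in wildtype and 10 fell and 1 rose in knockout, against the shares of all genes given above for that fit. Ndufaf1, which builds the membrane arm of complex I, fell by 2.35 in wildtype (adjusted p = 0.00720) and differed by -1.48 in knockout (adjusted p = 0.0665). Coa5, a complex IV factor, fell by 2.18 in wildtype (adjusted p = 0.00267) and was at -0.14 in knockout. Ndufaf4 and Tmem126b, complex I factors, fell in both genotypes, with differences of -1.84 and -1.27 in wildtype and -2.30 and -1.36 in knockout. The complex III factor Ttc19 rose by 1.11 in wildtype (adjusted p = 0.0111).

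Of 21 genes of the tricarboxylic acid cycle and the pyruvate dehydrogenase step that feeds it, 7 fell in each genotype and 1 rose in wildtype, and without the outlying array 11 and 9 fell and 1 rose in each. Suclg2, a subunit of succinyl-CoA ligase, had differences of -2.40 ± 0.19 and -2.08 ± 0.19 (adjusted p = 5.6e-06 and 1.5e-05), and Idh3a, of the NAD-dependent isocitrate dehydrogenase, of -1.77 and -2.13 (adjusted p = 0.0476 and 0.0256). Pdk2, a kinase that inhibits pyruvate dehydrogenase, rose by 0.36 in wildtype (adjusted p = 0.0395). Among 14 carriers and electron donors 3 and 2 fell (5 and 3, with 1 higher in wildtype, without the outlying array), among them Etfb, of the electron transfer flavoprotein, at -2.05 and -2.35 (adjusted p = 0.0226 and 0.0106), with its partner Etfa at -0.83 in each (adjusted p = 0.0359 and 0.0429). The ADP/ATP carrier Slc25a5 fell by 1.02 in wildtype (adjusted p = 0.0471).

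Of 4 further nuclear proteins of the chain 2 fell in wildtype and 3 in knockout, and all 4 in each without the outlying array. Ndufab1, the acyl carrier subunit of complex I, differed by -0.68 and -0.98 (adjusted p = 0.0238 and 0.00291), and Atpif1, the inhibitor of ATP synthase, by -0.91 and -0.92 (adjusted p = 0.0413 and 0.0495). Cycs, cytochrome c, fell by 1.10 in knockout (adjusted p = 0.00498) and differed by -0.65 in wildtype (adjusted p = 0.0573).

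The subunits encoded by the mitochondrial genome had smaller differences. None of the 10 measured passed in either genotype, with medians of -0.01 in wildtype and -0.13 in knockout. Below 0 were 7 of the 10 in wildtype and all 10 in knockout. The largest differences were those of ND3 in wildtype, at -0.14, and ND6 in knockout, at -0.21. The mean over the 10 ranged from -0.02 to 0.08 in wildtype marrow and from -0.08 to 0.09 in the wildtype esophagus, so those arrays overlapped. In knockout it ranged from 0.02 to 0.09 in marrow and from -0.14 to -0.04 in the esophagus, so those lay apart by a small margin.

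Regulators of mitochondrial gene expression were mixed, with 1 of 17 higher and 2 lower in wildtype and 1 higher and 3 lower in knockout. When the outlying array was left out, 4 were higher in each, and 4 and 3 lower. Lrpprc, which stabilizes mitochondrial messenger RNA, differed by -1.37 ± 0.16 and -1.27 ± 0.16 (adjusted p = 0.000153 and 0.000192), and the coactivator Pprc1 by -0.61 and -0.58 (adjusted p = 0.0260 and 0.0366). Tfb2m, a mitochondrial transcription factor, fell by 0.75 in knockout (adjusted p = 0.00416). Gabpb1, a GABP subunit, rose by 1.01 in knockout (adjusted p = 0.0228) and the nuclear receptor Esrrg by 0.42 in wildtype (adjusted p = 0.0310).

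The other regulators looked at by name did not pass. The coactivators Ppargc1a and Ppargc1b differed by 0.08 and -0.03 in wildtype and by 0.01 and -0.11 in knockout. Tfam, which packages mitochondrial DNA, differed by -0.01 and -0.19, Nrf1 by -0.15 and 0.40, Gabpa by -1.03 and -0.56, and Esrra by 0.28 and 0.22.

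Markers of other cells moved with the tissue as well, and each list is given with its counts in wildtype and knockout and, where they changed, without the outlying array. Neutrophil markers had median differences of -2.47 and -2.23, with 10 and 11 of 15 lower (12 and 11 without that array) and 1 higher in each genotype. Their mean lay between -0.06 and 0.35 in the Dox marrow arrays and between -2.80 and -1.92 in the esophageal arrays. Of 14 monocyte and macrophage markers 1 and 7 were lower (4 and 8 without that array) and 2 higher in each, with medians of -0.22 and -0.45. Of 15 fibroblast, muscle and endothelial markers 1 and 6 were higher with all arrays and 10 and 6 without that array, none was lower, and all 15 differences were above 0 in each genotype.

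Of 11 epithelial markers none and 1 were higher with all arrays and 3 and 2 without the outlying array, 1 and none were lower in both fits, and 10 differences were above 0 in each genotype. The 3 and 2 higher without that array stand against 25.1% and 9.75% of all genes. Of 7 lymphoid and erythroid markers 1 was lower in each. Eosinophil markers split, with 3 of 10 lower (5 without the outlying array) and 1 higher in wildtype and 4 lower and 3 higher in knockout: the granule proteins Epx, Prg2 and Prg3 differed by -3.50, -3.53 and -5.22 in wildtype (adjusted p = 0.000187, 5.3e-05 and 5.0e-05), while the lipoxygenase Alox15 rose by 2.95 (adjusted p = 0.00697). Centred values cannot show whether a marker is present. The part of these cells, and of maturation stage, in the lower subunit values was not tested.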

How the data were processed

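Sorted mouse eosinophils were measured on 17 Affymetrix 1-colour arrays. Per the submitters' processing notes, Affymetrix Expression Console was used; no version is given. The values deposited by the authors are log values, taken here as log2 and centred per probe set: of the 33793 probe sets, 97.08% had 2 values next to 0 that differed only in sign, with a tolerance of 2e-05. The log base and any normalization between arrays are not given in the sources used here.

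Of the probe sets, 23521 had 1 symbol in the platform annotation and gave 22180 genes, averaged for the 1082 genes with several. All 17 arrays entered 1 limma 3.58.1 fit (R 4.3.3) with 6 group means, moderated variances and 9 contrasts. Tests were two-sided, with Benjamini-Hochberg adjustment over all genes and a threshold of 0.05. Errors of differences are standard errors. The fit was tested on simulated data, in which each gene had the same spread in all arrays, estimated without the outlying array. That test does not cover the uneven spread of the real arrays. Replicates may be technical, so the p-values speak only of the spread among these arrays, and the number of arrays limits the precision. With 3 arrays against 3 an exact permutation test cannot pass the threshold, and none is given.

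The members, lists and rules were chosen with earlier results of these data known. Members named are, for each tissue comparison and complex, the 2 called members with the largest difference in each direction among those whose arrays do not overlap. In other contrasts, where none was called, they are the 3 with the smallest p. In addition, a marked set of core subunits and isoforms is named whatever their values. That set does not hold every core subunit or tissue-specific isoform, and Cox7b2 and Cox8c are outside it. Ndufb6, Ndufb8, Ndufs5 and Ndufa13 are described outside these rules, as are the members said above to be chosen after their values were seen. From the lists the 2 largest calls in each direction and 6 regulators are named.

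Promoter motifs were counted in the first listed RefSeq window of each gene. In all 10 spellings were counted and their counts were seen before the leading ones were kept. Those not led with were the NRF-1 motif with T between its parts (5 of 64 members, 1.321% of coding genes), GCGCATG (13, 4.883%), ACCGGAAG (7, 3.076%), AAGATGGCG (5, 1.944%) and AAATGGCG (2, 0.955%).

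Alternatives were quantile normalization, median centring, the lowest-numbered probe set, only the groups compared, array weights, 2 replicate blocks, each array left out, and, added after the data were seen, array weights without the outlying array.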

Additional observations from a re-analysis of the deposited data

Results flagged for a closer look

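In 3 members the knockout minus wildtype difference pointed opposite ways in 2 settings, with the arrays of the genotypes apart in both. Ndufv2 was lower in knockout in the esophagus (-0.814) and higher in marrow with Dox (0.187), and the test of that difference, the genotype by tissue term, gave -1.0 ± 0.63 (adjusted p = 0.962). Cox5a was higher in knockout in marrow with Dox (0.292) and lower without Dox (-0.582), and the genotype by Dox term gave 0.87 ± 0.44 (adjusted p = 0.663). Without the outlying array, which held Cox5a at -1.21, the difference without Dox was -0.21. Uqcrb differed by 0.228 with Dox and by -0.871 without, where the genotype by Dox term was 1.10 ± 1.44 (adjusted p = 0.752), and without the outlying array, at -2.24, the second value was -0.11. None of these terms passed, and 1 of 22180 genes was called for genotype by tissue and 0 for genotype by Dox.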

How the results depend on the processing

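For the wildtype tissue comparison, 13 members were called, against 39 with array weights, 42 with array weights and without the outlying array, and 4 to 46 when single arrays were left out. For the knockout comparison 10 were called, against 24 with quantile normalization, 39 with only the groups compared, 38 with array weights, 40 with array weights and without the outlying array, and 5 to 26 when single arrays were left out. Dox in knockout marrow went from 0 calls to 1 with quantile normalization, 8 with array weights and 0 to 1 when arrays were left out; genotype in the esophagus went from 0 to 1 with array weights and to 0 to 1 when arrays were left out. The cause was not tested, beyond the lower spread without the outlying array. Shares of all genes are given above only for the fits with all arrays and without the outlying array. The other counts in this paragraph therefore have no background value, and a fit can call more members because it calls more genes.

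Replicate numbers are shared by the groups, and whether they mark a shared batch or shared animals is not known. Of 40 same-numbered pairs 11 had deviations correlated above 0.1 (median 0.035, lowest -0.1, highest 0.231). Of 80 pairs with different numbers 9 did (median -0.022, lowest -0.233, highest 0.21). Among the 6 same-numbered pairs of marrow and esophagus of the same genotype with Dox, 1 did (median -0.007). With the number as a replicate block 16 wildtype and 12 knockout members were called, and with genotype and number as a block over the Dox arrays 25 and 18.

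The median of all genes in the wildtype comparison was 0.14, and 0.05 with quantile normalization. Complex medians that moved by more than the spread between replicates, when single arrays were left out, ranged from -0.918 to -0.507 for the tissue difference of complex III in wildtype, and in knockout from -0.696 to -0.664 for complex I, -0.345 to -0.193 for IV and -0.331 to -0.185 for V. For Dox in wildtype they ranged from 0.079 to 0.582 for complex II and from 0.038 to 0.097 for IV, for Dox in knockout from 0.013 to 0.224 for IV, and for genotype in Dox marrow from 0.011 to 0.109 for IV. Complex IV for Dox in knockout was 0.306 with median centring and 0.023 with the lowest-numbered probe set, and complex III for genotype in marrow without Dox was 0.267 with quantile normalization.

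Of 2132 values of single members under alternatives, 1910 kept direction and side of the threshold, 62 lost and 127 gained the call, and 33 changed sign, all for members close to 0. In wildtype these were, with single arrays left out, Atp5c1 (-0.154 to 0.031), Cox5b (-0.25 to 0.095), Cox7a1 (-0.19 to 0.24), Cox7a2l (-0.175 to 0.054), Ndufs7 (-0.288 to 0.044), Sdhd (-0.271 to 0.165) and Uqcrfs1 (-0.266 to 0.245). In knockout they were Cox6a2 (-0.104 to 0.241), Cox8b (-0.085 to 0.084), Sdhb (-0.162 to 0.144), Sdhd (-0.046 to 0.187) and Uqcrfs1 (-0.172 to 0.21). Median centring also turned Cox7a1 in wildtype (-0.077) and Cox8b in knockout (-0.028). Array weights turned Sdhb in knockout to 0.008, and to 0.009 without the outlying array. Uqcrfs1 was -0.022 and -0.026 in wildtype and knockout with quantile normalization, -0.087 and -0.037 with median centring, -0.184 and -0.054 with array weights, and -0.189 and -0.056 with array weights and without the outlying array. A filter on dim probes could not be run on centred values.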

Other observations

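Probe sets shared with other symbols were outside the counts. The 2 shared by Ndufs6 and Ndufs6b differed between esophagus and marrow by -0.77 and -1.53 in wildtype and by -0.77 and -1.33 in knockout. The 2 shared by Cox6c and a predicted gene differed by 0.09 and -0.65 in wildtype and by 0.00 and -0.76 in knockout, so they did not match each other. A probe set shared by Uqcrb and a predicted gene differed by 0.25 in wildtype and -0.23 in knockout, where the probe set of Uqcrb alone differed by -2.45 and -0.77. Among members with several probe sets, those of Ndufa11 ran opposite ways, with 0.16 and -0.80 in wildtype and 0.39 and -0.80 in knockout (r = -0.37 over the arrays).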
